A study of Mus musculus with 2 samples.

Results

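The S100 proteins described here are 8 genes of a family of small calcium-binding proteins, S100a1, S100a4, S100a6, S100a8, S100a9, S100a10, S100a11 and S100a13. They were read from every probe set whose gene symbol in the platform annotation is 1 of these names, which gave 11 of the 45037 probe sets on the array. The genes were selected on their intensities in these same 2 arrays, with the difference between the arrays already known, so their values are given as a description and no test is made of them. Of the 8 genes, 7 had a probe set of their own, out of 18193 genes with such a probe set. The only probe set of S100a11 is annotated to S100a11, to its pseudogene S100a11-ps and to the predicted gene Gm12854. Its signal cannot be assigned to 1 of these, and it is given apart and left out of the counts.

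The tested cells were sorted from the spleens of C57BL/6 mice with hepatocellular carcinoma, a liver cancer, as Ter119+ and CD45-. Ter119 marks the surface of maturing red cells, and CD45 is carried by nearly all white cells. The control was CD45+ cells of the same tumour-bearing animals, and the sources used here do not give whether Ter119 was part of that gate. Both samples thus came from mice with a tumour. There was 1 array per group, so the error of a difference cannot be known, and the number of arrays limits the precision of every value. The sources used here do not give the number of mice or whether they were pooled.

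S100 proteins carry a pair of EF-hands, helix-loop-helix folds that take up calcium, and most work as dimers that bind a partner protein when calcium rises inside the cell. Some are also released and act on receptors of other cells. S100a8 and S100a9 together form calprotectin, one of the most abundant cytosolic proteins of neutrophils, which is also made by monocytes. Most others are found in many tissues, where they bind annexins, myosin and other partners at membranes and the cell skeleton.

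The labels were checked against marker genes. All 11 erythroid markers with a value were at least 4-fold higher in the CD45- array, with summed intensities of 446879 in the CD45- array and 12047 in the CD45+ array. All 7 platelet markers were also at least 4-fold higher, with sums of 35475 in the CD45- array and 1717 in the CD45+ array. Ptprc, the gene of CD45, on which the cells were sorted, had an intensity of 422.7 in the CD45- array against 32147 in the CD45+ array, or 1.31% of the CD45+ signal. A gene was counted as measured when its intensity exceeded 101.1, the 95th percentile of the signal from 80 olfactory and vomeronasal receptor probe sets, genes expected to be silent in spleen. That percentile was 127 in the CD45- array alone and 73.5 in the CD45+ array alone. Differences are log2 intensity in CD45- cells minus CD45+ cells, and a value under the level was set to the level, so that such a difference is a bound. Bounds on single genes use 127 where the CD45- array was dim. Among all measured genes, 8.31% were at least 4-fold higher in the CD45- array, against all of the erythroid and platelet markers.

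The data show 6 S100 genes with far less signal in the CD45- cells than in the CD45+ cells. S100a1 had no such gap, by 1 probe set that may bind several transcripts. All 7 genes with a probe set of their own were measured in at least 1 array. In the CD45- array 6 of them were lower by 4-fold or more and 0 were higher by as much, with a median difference of -4.77. Among all 11793 genes measured in at least 1 array, 16.8% were lower by 4-fold or more and 8.31% were higher by as much, and the median difference was -0.26. Since the genes were chosen with this contrast in view, nothing is read from that gap. Centring each array on the median of its measured genes added 0.71 to the difference of every probe set and moved the share of higher genes among all 4-fold differences to 54.7%, against 33.1% as deposited. The 6 S100 genes stayed at least 4-fold lower under it, with a median over all 7 of -4.06. In bulk samples of sorted cells, fewer cells of a type and less RNA per cell cannot be told apart.

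**Figure D1:**
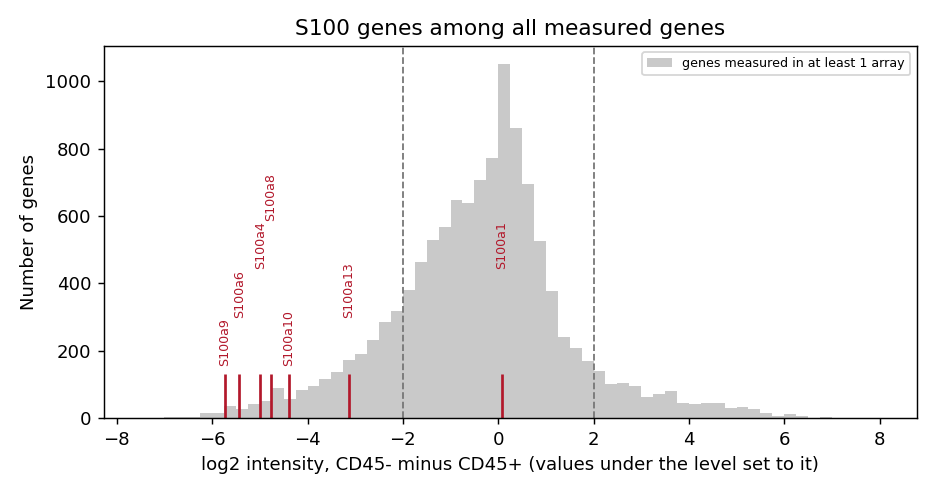
Histogram of the log2 difference in intensity, CD45- minus CD45+ cells, over the 11793 measured genes (x axis, log2 units; y axis, number of genes). Red lines mark the 7 S100 genes with a probe set of their own and dashed lines the 4-fold limits. The 6 lower genes are drawn between -5.74 and -3.13, S100a6 with its CD45- value set to the common level, and S100a1 lies at 0.07.

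S100a8 and S100a9 are the calprotectin subunits of neutrophils and monocytes. The S100a8 probe set read 1888.9 in the CD45- array against 51598 in the CD45+ array, 27.3-fold lower, a difference of -4.77. The S100a9 probe set read 778.2 in the CD45- array against 41573.5 in the CD45+ array, 53.4-fold lower, a difference of -5.74. Both stayed above the detection level in the CD45- array, at 3.66% of the CD45+ signal for S100a8 and 1.87% for S100a9. The gap between these 2 shares cannot be judged without replicates. Each gene had 1 probe set, and that of S100a8 is of the kind that may bind several transcripts.

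The sequences before the starts of this pair are shown because the genes are neighbours on mouse chromosome 3 and encode the subunits of 1 complex. Both also had more signal in the CD45+ array. Each run is the 250 bases before the RefSeq transcript start in GRCm38.p6, read 5′ to 3′ on the strand of the gene. Capitals mark matches to AGATAA, a form of the motif of GATA factors, to TTGCNNAA, for C/EBP factors, to GAGGAA, for ETS factors such as PU.1, and to CCACCC, for Krüppel-like factors, each sought on both strands. They also mark TATAAA, the TATA box, sought on the strand of the gene. S100a8 lies at chr3:90668821-90669070 on the plus strand and S100a9 at chr3:90695722-90695971 on the minus strand.
S100a8: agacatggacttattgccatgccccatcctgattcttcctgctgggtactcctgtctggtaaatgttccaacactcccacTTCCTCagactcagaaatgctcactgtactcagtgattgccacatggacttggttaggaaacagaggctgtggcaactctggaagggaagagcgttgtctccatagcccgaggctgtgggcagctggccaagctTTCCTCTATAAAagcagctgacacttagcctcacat
S100a9: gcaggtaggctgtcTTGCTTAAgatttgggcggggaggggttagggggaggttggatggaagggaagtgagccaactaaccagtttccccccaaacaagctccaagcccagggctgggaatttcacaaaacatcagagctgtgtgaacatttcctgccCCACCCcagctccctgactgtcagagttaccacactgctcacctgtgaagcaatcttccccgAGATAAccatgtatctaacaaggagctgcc

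The 2 windows did not share a marked motif. That of S100a8 held the ETS motif on the opposite strand at 170 and 36 bases before the start, the nearer match running straight into the TATA box at 30 bases, with no overlap. That of S100a9 held the C/EBP motif at 236 bases, the Krüppel-like factor motif at 92 and the GATA motif at 30. Over 32817 promoter windows of this length, the ETS motif was found in 23.3%, the TATA box in 7.60%, the C/EBP motif in 9.57%, the Krüppel-like factor motif in 28.1% and the GATA motif in 9.99%. Among the 7 S100 genes with a window in the RefSeq table, the ETS motif was present in 2, the GATA motif in 2, the Krüppel-like factor motif in 3, the TATA box in 2 and the C/EBP motif in 1. Such matches describe letters and do not show binding.

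Neutrophil and monocyte markers had less signal in the CD45- array along with the calprotectin genes. Of 18 neutrophil markers with a value, 17 were measured, 10 of them at least 4-fold lower and 0 higher. Of all measured genes, 16.8% were lower and 8.31% higher by as much. After quantile normalization or median centring, 9 of the 17 were lower. The summed intensities of the 18 markers were 2750 in the CD45- array and 66265 in the CD45+ array. With values under the level set to it, the 4 with the largest difference were Chil3, which read 187.6 in CD45- cells against 14538.6 in CD45+ cells, the antimicrobial peptide gene Camp, with 198.1 in CD45- cells against 8706 in CD45+ cells, Ngp, with 588.7 in CD45- cells against 22162.7 in CD45+ cells, and Lcn2, with 227.6 in CD45- cells against 8521.6 in CD45+ cells. Their CD45- signal was 1.29%, 2.28%, 2.66% and 2.67% of the CD45+ signal. The list was not uniform, and 7 of the 17 markers did not reach 4-fold. Among these, Mmp9, Mpo and Elane were above the level in both arrays, at 58.5%, 52.7% and 43.3% of the CD45+ signal. For Mmp9 this is the brighter of 2 probe sets, and the other differed by -3.88. Only 8 of the 17 were above the level in the CD45- array, so the shares of the others, among them Pglyrp1 (38.1 in CD45- cells against 1690.9 in CD45+ cells), are not known, and their differences could be larger than those named.

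Of 11 monocyte and macrophage markers, 10 were at least 4-fold lower, where 16.8% of all measured genes were. After quantile normalization or median centring the count was 9. The sums were 4004 in the CD45- array and 85771 in the CD45+ array. With values under the level set to it, the largest differences were those of Mpeg1 (207.8 in CD45- cells against 9769 in CD45+ cells), the signalling adaptor Tyrobp (296.7 in CD45- cells against 12228.2 in CD45+ cells), the chemokine receptor Ccr2 (33.3 in CD45- cells, under the level, against 2540.7 in CD45+ cells) and the lysozyme Lyz2 (869 in CD45- cells against 18918.6 in CD45+ cells). Spi1, which encodes PU.1, was under the level in CD45- cells (29.8, against 1577.4 in CD45+ cells) and is known only to be at least 12.4-fold lower, so it could exceed these. All 9 lymphocyte markers were at least 4-fold lower, with sums of 2043 in the CD45- array and 115882 in the CD45+ array. The largest differences there were those of the T cell genes Cd3d (18.4 in CD45- cells, under the level, against 9915.3 in CD45+ cells) and Cd2 (82.8 in CD45- cells, under the level, against 8583.1 in CD45+ cells), of the protease Gzma (127.4 in CD45- cells against 11650.2 in CD45+ cells) and of Ms4a1, which encodes CD20 (366.1 in CD45- cells against 21605.3 in CD45+ cells). The part of these cell types in the S100 values was not tested. All 3 lists mark cell types that carry CD45, on which the cells were sorted.

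**Figure D2:**
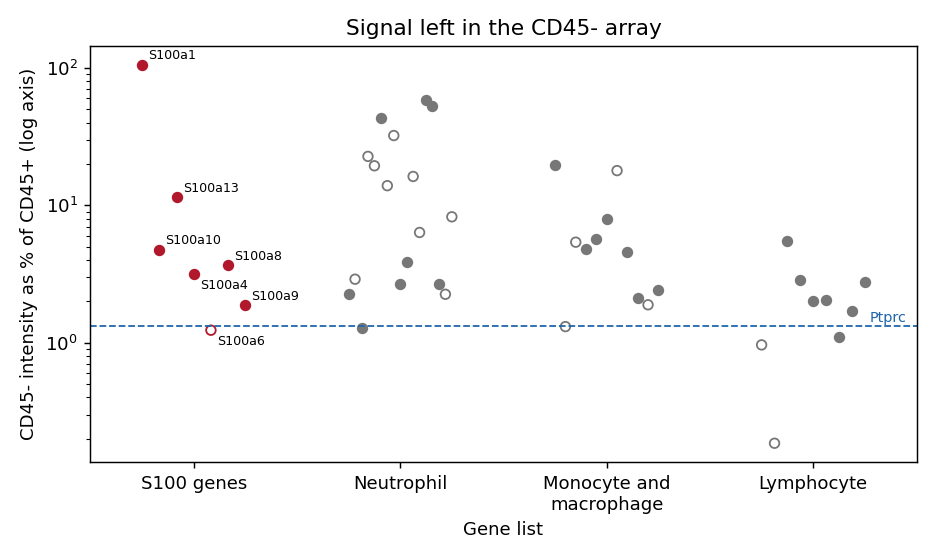
Intensity in the CD45- array as a percentage of that in the CD45+ array (log axis) for the S100 genes and 3 marker lists, each point a gene measured in CD45+ cells. Open points are under the detection level in the CD45- array, where their share is not known, and the dashed line is Ptprc at 1.31%. S100a8 and S100a9 lie at 3.66% and 1.87%, and S100a1 at 105%.

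S100a4, S100a6, S100a10 and S100a13 are found in many tissues, and all were lower in the CD45- cells. S100a4, which binds non-muscle myosin and is known from motile cells, read 172.9 in the CD45- array against 5487.6 in the CD45+ array, 31.7-fold lower, a difference of -4.99. S100a6, known as calcyclin, read 53.7 in the CD45- array, under the level, against 4352.9 in the CD45+ array. Its signal was therefore at least 34.2-fold lower. S100a6 was the only S100 gene of the 7 that lay under the detection level in the CD45- array.

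S100a10 binds annexin A2 and, unlike its relatives, has lost the ability to take up calcium. Of its 3 probe sets, 1456642_x_at read 720.7 in the CD45- array against 15119.3 in the CD45+ array, and 1416762_at read 442.7 in CD45- cells against 9161.8 in CD45+ cells. These gave 21.0-fold and 20.7-fold lower signal, with differences of -4.39 and -4.37, so the probe sets differed little although the brighter is of a kind that can bind unrelated transcripts. The other set, 1439348_at, was dim in both arrays, with 3.5 in the CD45- array, under the level, against 312.2 in the CD45+ array, at least 2.45-fold lower. Across all genes, probe sets of 1 gene that were above the level in both arrays had a pooled SD of 0.66 in the difference over 3608 genes, which is not replicate error.

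S100a13, which takes part in the release of growth factors that lack a signal peptide, had the smallest gap of the 6 lower genes. Its probe set read 303.5 in the CD45- array against 2654 in the CD45+ array, 8.74-fold lower, a difference of -3.13. The probe set shared by S100a11, its pseudogene and Gm12854 read 348 in the CD45- array against 8438.4 in the CD45+ array, 24.2-fold lower. S100a11 is a partner of annexin A1, but the shared probe set gives no value for it alone.

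S100a1, best known from heart and skeletal muscle, where it binds calcium channels and pumps, had no 4-fold difference that could be established. By 1419814_s_at it read 279.9 in the CD45- array against 265.8 in the CD45+ array, a difference of 0.07. By 1417421_at it read 121.1 in the CD45- array against 21.9 in the CD45+ array. That second value was under the level, and 121.1 lies between the level of both arrays and that of the CD45- array alone, so no secure bound follows from it. The value of S100a1 thus rests on 1 probe set, which is of the kind that may bind several transcripts.

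**Figure D3:**
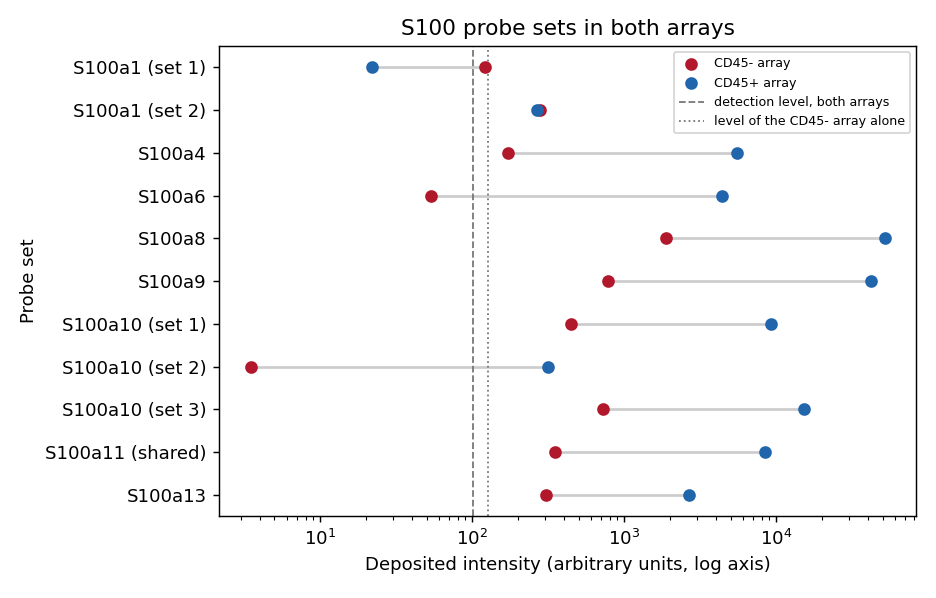
Deposited intensity (x axis, arbitrary units, log scale) of the 11 S100 probe sets in the CD45- array (red) and the CD45+ array (blue), 1 array each, with the detection levels as vertical lines and the sets of a gene in the order of their probe set names. S100a1 by its set 2 reads 279.9 in CD45- cells and 265.8 in CD45+ cells, its set 1 is near or under the levels, and S100a6 and 1 set of S100a10 are under the level in CD45- cells.

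By the probe sets that stand for them, S100a1 showed no 4-fold difference and S100a13 did. Their RefSeq starts face away from each other on chromosome 3, S100a1 on the minus strand and S100a13 on the plus strand. The bases between the starts, at chr3:90514331-90514434 in GRCm38.p6, are shown because both genes have them directly upstream. They are 104 bases long, 58.7% of them G or C, printed 5′ to 3′ on the plus strand, the strand of S100a13.
Between S100a1 and S100a13: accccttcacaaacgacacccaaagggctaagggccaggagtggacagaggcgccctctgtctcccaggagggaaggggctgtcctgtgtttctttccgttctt

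All 8 genes lie on chromosome 3 in the RefSeq table of GRCm38.p6. S100a1, S100a13, S100a14, S100a16, S100a3, S100a4, S100a5, S100a6, S100a8 and S100a9 follow each other in that order, with other family genes among them, and S100a11 and S100a10 stand together farther along. Of the neighbours S100a8 and S100a9, both were far lower in CD45- cells, as were S100a4 and S100a6. Between and before these lie genes that were not measured. S100a3 read 38.6 in the CD45- array and 2.1 in the CD45+ array and S100a5 read 10.5 in the CD45- array and 28.7 in the CD45+ array, all under the level. S100a14, next to S100a13, read 78.4 in the CD45- array and 9 in the CD45+ array, also under the level.

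The other family genes were mostly not measured. Of 15 listed, which include the fused genes of skin such as Flg, 11 had a value and only S100a16 was above the level in either array. S100a16 read 231.1 in the CD45- array against 94.2, under the level, in the CD45+ array, at least 2.29-fold higher, and it did not reach 4-fold. Its second probe set read 58.6 in the CD45- array and 25.6 in the CD45+ array, both under the level. For the rest, values under the level do not show whether they differed.

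**Figure D4:**
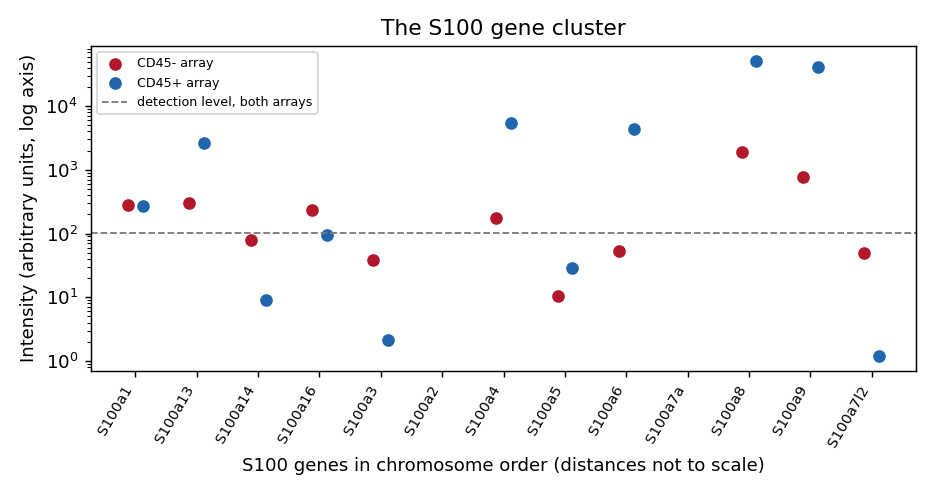
Intensity (y axis, arbitrary units, log scale) of the S100 genes from S100a1 to S100a7l2 in their order on chromosome 3, in the CD45- array (red) and the CD45+ array (blue), with the detection level as a dashed line. S100a2 and S100a7a had no probe set of their own. S100a8 and S100a9 read 51598 and 41573.5 in CD45+ cells, while S100a3, S100a5 and S100a14 are under the level in both arrays.

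Partners that S100 proteins bind were described from a list of 25 genes, of which 22 had a value and 18 were measured. In the CD45- cells 2 were higher by 4-fold or more and 8 lower by as much, where 8.31% and 16.8% of all measured genes were, with a median difference of -1.44. Annexins, which bind membranes when calcium rises, were lower by their brightest probe sets. A further set of Anxa1 and 1 of Anxa2 were under the level in both arrays and carry no direction. Anxa2, the partner of S100a10, read 147.2 in the CD45- array against 4286.9 in the CD45+ array, a difference of -4.86. Anxa1, the partner of S100a11, read 194.9 in the CD45- array against 6950.6 in the CD45+ array, a difference of -5.16, and Anxa6 read 137.3 in CD45- cells against 3306.3 in CD45+ cells. Ahnak, a very large scaffold that binds the S100a10 and annexin A2 complex, read 39.7, under the level, in the CD45- array against 2898.3 in the CD45+ array, at least 22.8-fold lower.

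The oxidase that calprotectin assists in phagocytes was lower as well. Its subunit Cybb read 271 in the CD45- array against 13394.3 in the CD45+ array, 49.4-fold lower. Cyba read 819.2 in the CD45- array against 16807.8 in the CD45+ array, 20.5-fold lower, and Ncf1 read 204.3 in CD45- cells against 3967.9 in CD45+ cells, 19.4-fold lower. Ryr1, a calcium release channel that S100a1 binds in muscle, read 3.2, under the level, in the CD45- array against 866.9 in the CD45+ array, at least 6.81-fold lower.

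Receptors for released S100 proteins did not share 1 direction. Tlr4, a receptor of calprotectin, read 153.1 in the CD45- array against 414.6 in the CD45+ array, a difference of -1.44, and did not reach 4-fold. Ager, which encodes RAGE, was under the level in both arrays by its brighter probe set, at 17.1 in the CD45- array and 96.7 in the CD45+ array, while its other probe set read 6.2, under the level, in the CD45- array against 141.6 in the CD45+ array. Bsg (basigin), reported in human cells as a receptor of S100A9, read 38256.3 in the CD45- array against 3236.1 in the CD45+ array, 11.8-fold higher. Cd36, a scavenger receptor reported in human cells to bind calprotectin that carries fatty acids, read 12818.3 in the CD45- array against 1148.4 in the CD45+ array, 11.2-fold higher, and its 3 probe sets gave differences from 3.48 to 4.01.

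The other measured partners inside the cell or released by it did not reach 4-fold as deposited, with values under the level set to it. Cacybp, the calcyclin-binding protein, read 2345.6 in the CD45- array against 2959 in the CD45+ array, a difference of -0.34 that became 0.38 after median centring. Sugt1, which also binds S100a6, differed by -1.08 by its brighter probe set and by 0.21 by the other. Myh9, the myosin heavy chain that S100a4 binds, differed by -1.44, with 7508.5 in the CD45- array against 20397.7 in the CD45+ array. Atp2a2, a calcium pump and partner of S100a1, differed by 1.67 by its brightest probe set. That set read 9978.6 in the CD45- array against 3135.2 in the CD45+ array, and passed 4-fold only after median centring (2.38). The other Atp2a2 sets above the level in both arrays differed by 0.87, 0.58, 0.55 and -0.09. Ppfibp1, which binds S100a4, read 105.5 in the CD45- array against 178.9 in the CD45+ array. Fgf1 and Syt1, partners of S100a13 in release, lay near the level in the CD45- array, at 132.2 and 139.9, and under it in the CD45+ array, at 31.2 and 69.1. Their differences are therefore bounds, and whether they pass 4-fold is not known. Ryr2, Plat and Plg were under the level in both arrays.

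**Figure D5:**
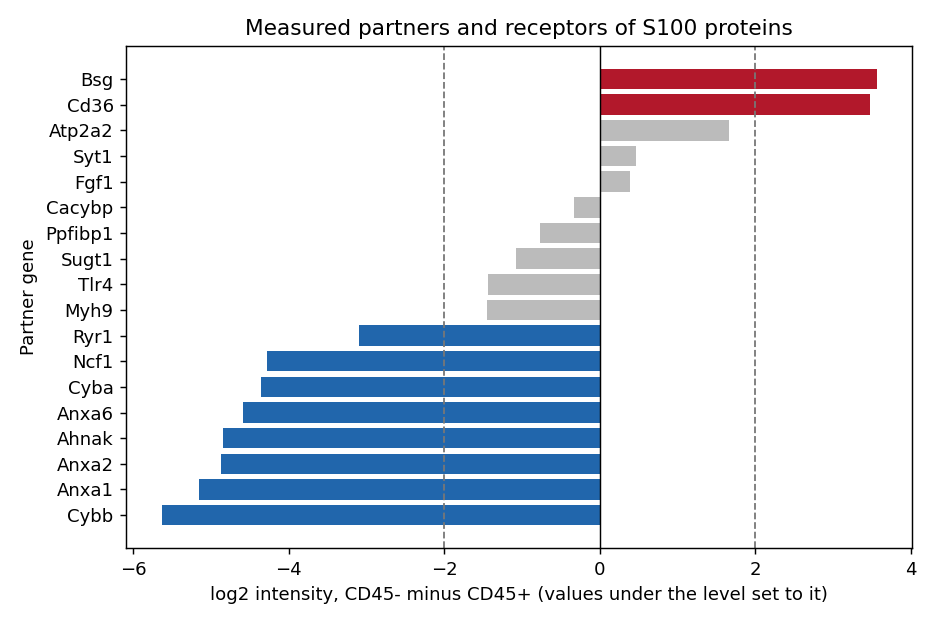
log2 difference in intensity, CD45- minus CD45+ cells (x axis), of the 18 measured partner genes, with dashed lines at 4-fold. Red bars are at least 4-fold higher, blue bars at least 4-fold lower and grey bars neither. Bsg and Cd36 stand at 3.56 and 3.48, and the bars of Ryr1, Ahnak, Fgf1 and Syt1 are bounds.

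Other EF-hand proteins, listed to set the S100 genes beside calcium binders of other kinds, were counted in the same way. Of 25 listed, 20 had a value and 16 were measured. In the CD45- cells 1 was higher by 4-fold or more, 2 were lower by as much and 13 were neither, near the shares of 8.31% higher and 16.8% lower over all measured genes. The median difference was -0.78. Since the S100 genes were chosen with their difference known, nothing is read from their contrast with this list. The largest difference was that of Lcp1, the actin-bundling plastin of white cells, which read 1205.9 in the CD45- array against 20214.9 in the CD45+ array, 16.8-fold lower. Rcn2, a calcium binder of the endoplasmic reticulum, read 275.8 in the CD45- array against 1257.5 in the CD45+ array, a difference of -2.19. Nucb1, which encodes a calcium-binding protein of the Golgi, read 7967.3 in the CD45- array against 1897.9 in the CD45+ array, 4.20-fold higher. After quantile normalization Rcn2 (-1.67) and Nucb1 (1.87) did not reach 4-fold. Cetn2, a centrosome protein, differed by -1.89. By its brighter probe set Rcn1 read 81.5, under the level, in the CD45- array against 373.5 in the CD45+ array. It is known only to be at least 2.94-fold lower, so it could exceed Cetn2 and Rcn2.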

How the data were processed

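RNA of 2 sorted cell samples was measured on 1 Affymetrix 3' expression array each. The deposited values are intensities on a linear scale, 1 for each probe set in each array, from 0.5 to 104603 in the CD45- array and from 0.1 to 74470 in the CD45+ array. Per the submitters' processing notes, GCRMA and Partek 6.6 were used. Which step made these values, and how the arrays were scaled to each other, is not stated in the sources used here, and the table has no detection calls.

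The log2 of each intensity was taken, without a pseudocount or rescaling. A gene with several probe sets was represented by the set whose log2 values averaged highest. GEO's platform annotation gave 34945 probe sets 1 symbol, 932 several and 9160 none. RefSeq's gene table of GRCm38.p6 matched 34741 of the first group and changed 0 symbols, and it also supplied the promoter windows, with 7 of the 8 S100 genes matched. Genes at least 4-fold apart were counted, with no test, since there was 1 array per group.

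The S100 genes, the other lists and the motifs were chosen with earlier results of these data known. The text names all S100 genes, the measured family and partner genes and the 4 genes of each cell type or EF-hand list with the largest difference. Names beyond these, such as Pglyrp1, Mmp9, Mpo, Elane, Spi1, Rcn1 and Ager, were chosen after their values were seen. Platelet and erythroid markers are given as sums. Of 12 stromal, endothelial and liver markers, 4 were measured, and only Vwf passed 4-fold (1368.4 in the CD45- array and 63.9, under the level, in the CD45+ array). Cdh5, Afp and Epcam, the others measured, did not. Which cells gave the Vwf signal was not tested. Alternatives were another scaling, detection level or choice of probe sets. Counting was run on simulated data, with differences placed only in genes well above the level. It does not cover real differences near the level. Python 3.11.15, numpy 2.4.6, pandas 2.3.3 and matplotlib 3.10.9 were used.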

Additional observations from a re-analysis of the deposited data

How the results depend on the processing

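The 7 alternatives were quantile normalization, median centring, a detection level for each array, the 99th percentile as the level, no level, averaging the probe sets of a gene, and leaving out probe sets ending in _x_at or _s_at. In all of them 0 S100 genes were at least 4-fold higher, and 6 were at least 4-fold lower, except that leaving out those probe sets left S100a8 with no value and the count at 5. A difference was taken as moved when it shifted by 0.66 or more, the SD between probe sets. Median centring moved the differences of S100a1 to 0.79, S100a4 to -4.28, S100a6 to -4.72 and S100a8 to -4.06. It also moved S100a9 to -5.03, S100a10 to -3.68, S100a13 to -2.42 and the median over the 7 to -4.06. The count of all genes at least 4-fold lower moved to 1180 of 11291 measured, against 1979 of 11793 as deposited. These moves follow from the shift of 0.71 that median centring adds to every probe set. S100a1 stood at 0.79 after quantile normalization and 0.86 with averaged probe sets, which put S100a10 at -5.08. S100a6, under the level in CD45- cells, stood at -5.43 with the common level, -4.77 with the 99th percentile and -6.34 with none. With no level, 3293 genes (18.1% of 18193) were at least 4-fold lower and 2885 (15.9%) higher, since genes near background then count. With the level these were 1979 (16.8% of 11793) and 980 (8.31%). No paired analysis was possible because each group has 1 array.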

Other observations

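The genes that flank and separate the S100 genes on chromosome 3 were read as well, a choice made after their values were seen. Just before S100a1 in the RefSeq order, Chtop, an mRNA export factor, read 4449.8 in the CD45- array and 4429.4 in the CD45+ array, and Ilf2 read 1503.9 in the CD45- array and 1028.3 in the CD45+ array. Snapin, a vesicle fusion protein, read 333 in the CD45- array against 1660.4 in the CD45+ array, a difference of -2.32, and Ints3, a subunit of the Integrator complex, read 141.1 in the CD45- array against 600 in the CD45+ array, a difference of -2.09. Npr1, in the same stretch, did not pass the level in either array, at 24.2 in the CD45- array and 25.1 in the CD45+ array.

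Between the 2 runs of S100 genes lie 54 protein-coding genes, most of them of the skin barrier, of which 36 had a value. Of these, 9 were above the level in the CD45- array and 4 in the CD45+ array, or 7 in the CD45- array and 5 in the CD45+ array with the level of each array. The brightest in CD45- cells was Lce1h, a late cornified envelope gene, with 640.9 in the CD45- array against 29.1, under the level, in the CD45+ array, a difference of at least 2.66. Lce genes are related to each other. Whether the Lce1h probe set also binds others of them was not tested, so its value is uncertain. Lor, which encodes loricrin, read 609.7 in the CD45- array against 279.6 in the CD45+ array. The median of the silent receptor probe sets was 33.6 in the CD45- array and 17.5 in the CD45+ array, and the part of that background in these values was not tested.

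S100pbp, whose name is that of an S100-binding protein, read 255.1 in the CD45- array against 766 in the CD45+ array by its brighter probe set, a difference of -1.59. Its other probe set read 82.3 in the CD45- array and 76.9 in the CD45+ array, both under the level. S100a7l2 did not pass the level in either array, at 50.3 in the CD45- array and 1.2 in the CD45+ array.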
